A study of Mus musculus with 23 samples.

Results

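The genes described are the 10 AP-1 and ATF transcription factor genes Fos, Fosb, Fosl1, Fosl2, Jun, Junb, Jund, Batf, Batf3 and Atf3, out of 20145 mouse genes that could be named on the array. Each was followed by the probe of highest mean intensity among probes whose RefSeq identifier maps to its symbol, and all 10 were among the 15202 genes tested. Messenger RNA was hybridised in 1 colour to Agilent arrays at 4 stages of blood formation from mouse ES cells. The stages were haemogenic endothelium (HE, sorted as KIT+ Tie2+ CD41-), HE2 (KIT+ Tie2+ CD41+), progenitors (KIT+ Tie2- CD41+) and myeloid progenitors, which were grown in medium with stem cell factor, Flt3 ligand and thrombopoietin. All cells, the uninduced ones included, derived from A2lox ES cells with a tagged human RUNX1-ETO, the fusion protein of t(8;21) leukaemia, under a doxycycline (Dox)-responsive promoter and with wild-type RUNX1, and the labels give the strain as C57BL/6. Induced HE, HE2 and progenitors received Dox from day 1 of blast culture, whereas induced myeloid progenitors received it for 12 h in the expansion medium. Uninduced cells of each stage had no Dox. The line was raised from picked colonies, and the labels do not say how many, so that the arrays may represent a single clone. Dox itself was given only with the transgene, so that the drug and RUNX1-ETO cannot be told apart.

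AP-1 is a dimer of a FOS and a JUN protein, held together by leucine zippers, that binds the TPA response element. FOS and JUN genes are immediate early genes, whose transcripts rise rapidly after growth factor or stress signals and decay quickly. BATF and BATF3 pair with JUN proteins in blood cells and lack the activation domain of FOS, and ATF3 is a stress-induced member of the ATF and CREB family.

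Each group had 3 arrays labelled as biological replicates, or 2 in the case of progenitors with and without Dox, spread over 3 slides. An additional array of uninduced progenitors, labelled as a technical replicate, entered the normalization and no test. Between 48.8 and 78.4% of spots were well above background and none was saturated, and precision is set by how few arrays there were. The myeloid progenitor arrays all lay on slide 3, as did induced progenitor array 2, whereas the arrays of HE and HE2 lay on slides 1 and 2. Of the markers used for sorting, Tek (Tie2) had a mean log2 intensity of 11.95 in uninduced HE and 8.67 in uninduced progenitors, Kit lay between 12.29 and 14.06 on the uninduced arrays of these 3 sorted stages, and Itga2b (CD41) was well above background on all uninduced HE arrays, at 9.49 to 11.46. Against their sort as Tie2-, induced progenitors had Tek at 10.91 to 11.29. In whole-population RNA, fewer cells of a type and less RNA per cell cannot be told apart.

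The promoters of 9 of the 10 genes were listed in RefSeq (build GRCm38.p6), and 5 are shown because they hold a match to a sequence bound by AP-1, CREB or RUNX proteins. The windows searched ran from 250 bases before to 50 bases after the start of transcription, on both strands, and capitals mark the matches. In Fos (chr12:85473640-85473889, + strand) the capitals are TGACGT, the core of the cyclic AMP response element, which 7.51% of all 32851 listed promoters hold. In Fosb they are TGACGCA, held by 2.12%, and in Jun (chr4:95052223-95052472, - strand) they are TGACATCA, held by 3.62%. In Batf (chr12:85686470-85686719, + strand) they are TGTGGT, the RUNX sequence, in both orientations, and 1 TGACGT, and in Atf3 (chr1:191183334-191183583, - strand) they are TGACGT read on the opposite strand. The Fos, Jun, Batf and Atf3 windows are the 250 bases before the start, and the Fosb window (chr7:19310088-19310117, - strand) is 30 bases, since RefSeq lists a further Fosb transcript that begins 73 bases upstream.
Fos: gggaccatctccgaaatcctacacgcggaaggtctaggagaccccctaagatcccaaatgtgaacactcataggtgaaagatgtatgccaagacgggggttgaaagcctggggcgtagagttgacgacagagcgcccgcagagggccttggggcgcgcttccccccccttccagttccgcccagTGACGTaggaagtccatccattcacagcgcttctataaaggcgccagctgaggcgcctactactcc
Fosb: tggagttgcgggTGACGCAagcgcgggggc
Jun: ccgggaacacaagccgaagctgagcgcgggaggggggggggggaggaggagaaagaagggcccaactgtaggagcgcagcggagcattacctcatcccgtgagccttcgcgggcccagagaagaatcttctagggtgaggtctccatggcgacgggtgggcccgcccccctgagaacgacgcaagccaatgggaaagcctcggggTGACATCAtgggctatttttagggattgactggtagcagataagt
Batf: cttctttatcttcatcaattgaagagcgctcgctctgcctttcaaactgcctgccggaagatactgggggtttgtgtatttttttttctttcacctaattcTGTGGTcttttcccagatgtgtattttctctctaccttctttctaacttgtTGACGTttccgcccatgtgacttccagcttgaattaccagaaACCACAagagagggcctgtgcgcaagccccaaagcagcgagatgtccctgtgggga
Atf3: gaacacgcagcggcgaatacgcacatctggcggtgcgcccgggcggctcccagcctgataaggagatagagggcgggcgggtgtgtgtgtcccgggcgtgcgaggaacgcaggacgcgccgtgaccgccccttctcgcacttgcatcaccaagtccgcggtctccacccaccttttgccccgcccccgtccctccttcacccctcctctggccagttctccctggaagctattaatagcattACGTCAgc
A RUNX sequence TGTGGT was present in 16.8% of all promoters and at least 2 of them in 1.81%, and Batf was the only one of the 9 to hold it. The complete cyclic AMP response element TGACGTCA (1.79% of all promoters), the TPA response element TGACTCA (5.2%) and the CArG box of serum response factor (1.63%) had no match in these 9 windows. TGACGT also overlaps TGACGTCA, and it was found in Fos, Batf and Atf3. A match describes letters and does not show binding, and Fosl1 had no listed promoter.

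**Figure D1:**
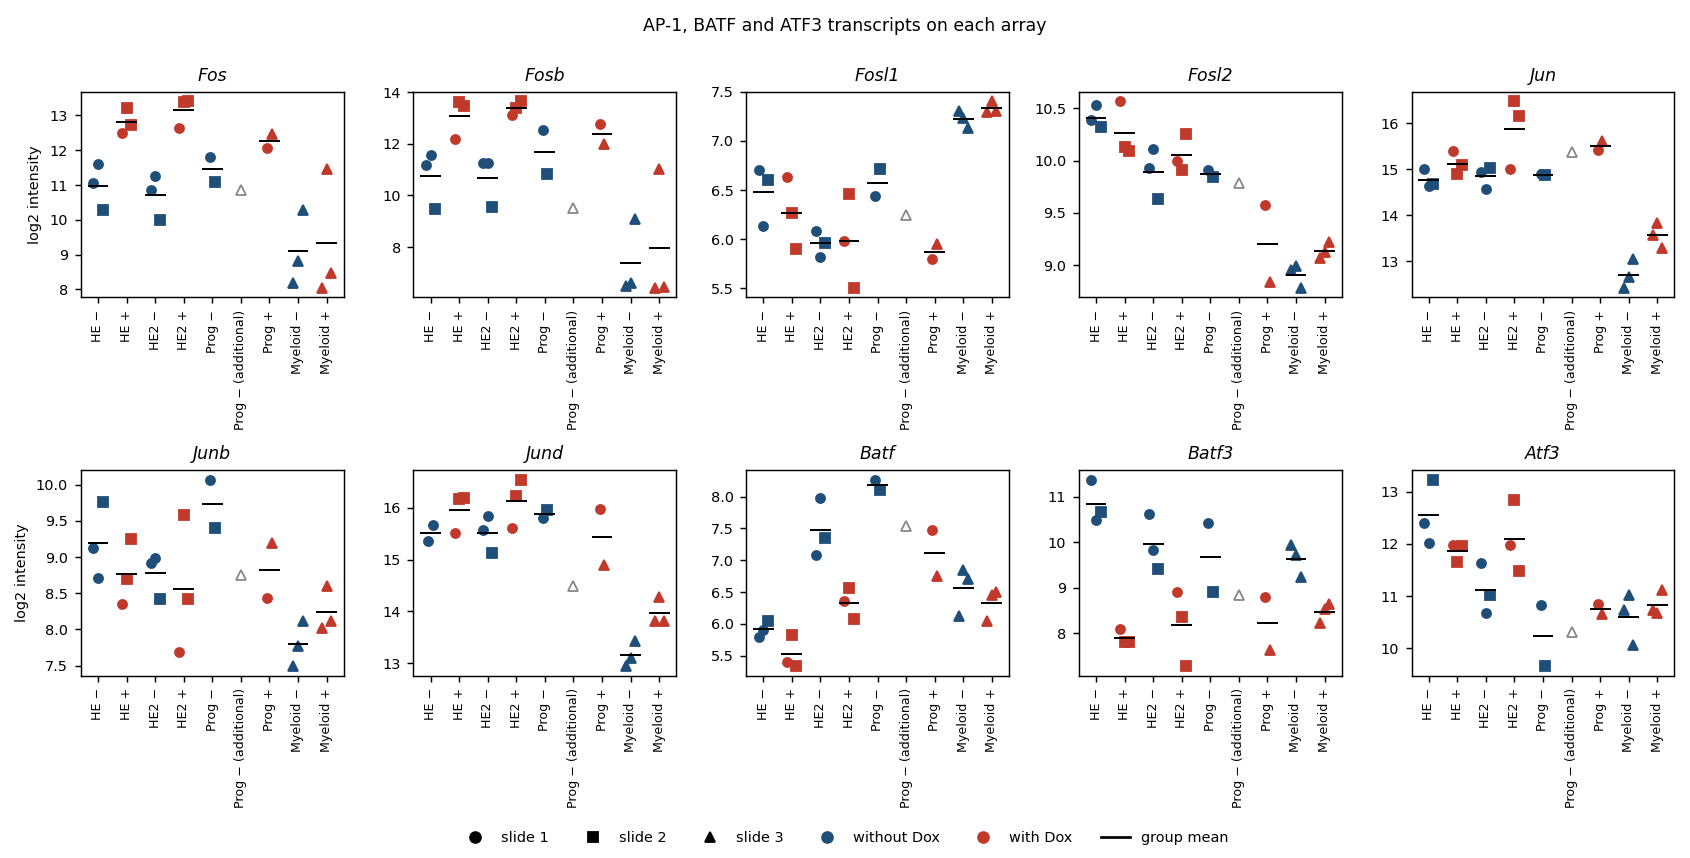
Log2 intensity of each of the 10 genes on every array, by stage without Dox (−) and with Dox (+); circles, squares and triangles stand for slides 1, 2 and 3, bars for group means, and the open triangle for the additional uninduced progenitor array. Batf3 lies lower on induced than on uninduced arrays at all 4 stages, and Fos and Fosb spread widely within groups.

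Array intensities of Fos and Fosb varied far more between arrays of a group than those of most genes, which bears on all of their comparisons. The residual standard deviation (SD) over the groups was 0.92 on the log2 scale for Fos, above that of 98.8% of genes, and 1.36 for Fosb, above that of 99.9%, compared with a median of 0.31 over all genes tested. Batf3 (0.59), Junb (0.53) and Atf3 (0.50) lay above 90.4%, 86.2% and 84.2% of genes. Jund (0.38), Jun (0.37), Batf (0.32), Fosl1 (0.27) and Fosl2 (0.21) lay nearer to the median. The probe of Fos was spotted 10 times on each array, and its spots differed by an SD of 0.013 to 0.19, whereas its SD between arrays of a group reached 1.86, in induced myeloid progenitors. The spread of Fos was thus far wider between arrays than between spots of an array.

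**Figure D2:**
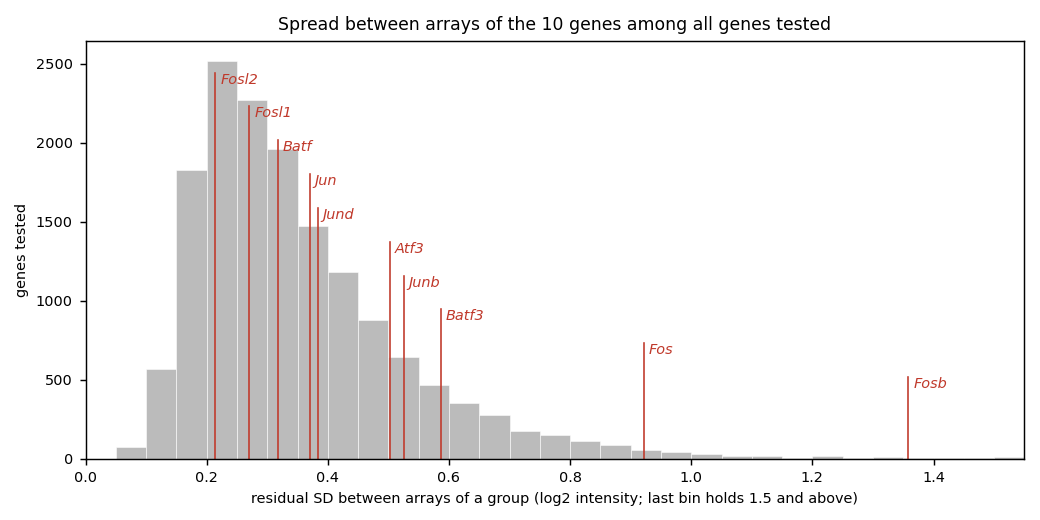
Number of genes tested (y axis) by residual SD between arrays of a group in log2 units (x axis), with the 10 genes marked by lines whose heights carry no value. Fosl2 (0.21) and Fosl1 (0.27) lie below the median of 0.31, and Fos (0.92) and Fosb (1.36) in the far tail.

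With Dox, Batf3 fell in HE and in HE2 and Batf fell in HE2, and no other member passed the threshold at any stage. Genes were called where limma, fitted to 22 arrays in 1 model, gave an unadjusted P no higher than 0.001 with a 2-fold or larger change, and adjusted P values (Benjamini-Hochberg) run over all genes tested. In HE, 1 of the 10 members was called, compared with 7.09% of all genes. In HE2, 2 were called (7.22% of all genes). For the progenitors and the myeloid progenitors, 0 were called by limma (3.73% and 6.31% of all genes), although 4 and 3 of the 10 had an unadjusted P below 0.05. Shares of all genes below that P were not counted. Counts of members below it, here and later, are therefore no result about the 10 genes as a set. The 10 genes had median log2 changes of -0.18 (HE), 0.38 (HE2), -0.55 (progenitors) and 0.23 (myeloid progenitors), and that of all genes lay between -0.04 and -0.01. Uninduced and induced arrays did not overlap for 4 members in HE (25.2% of all genes), 4 in HE2 (32.3%), 7 for progenitors (49%) and 4 for myeloid progenitors (46.6%). Shares this near to those of all genes are no result about the 10 genes as a set.

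**Figure D3:**
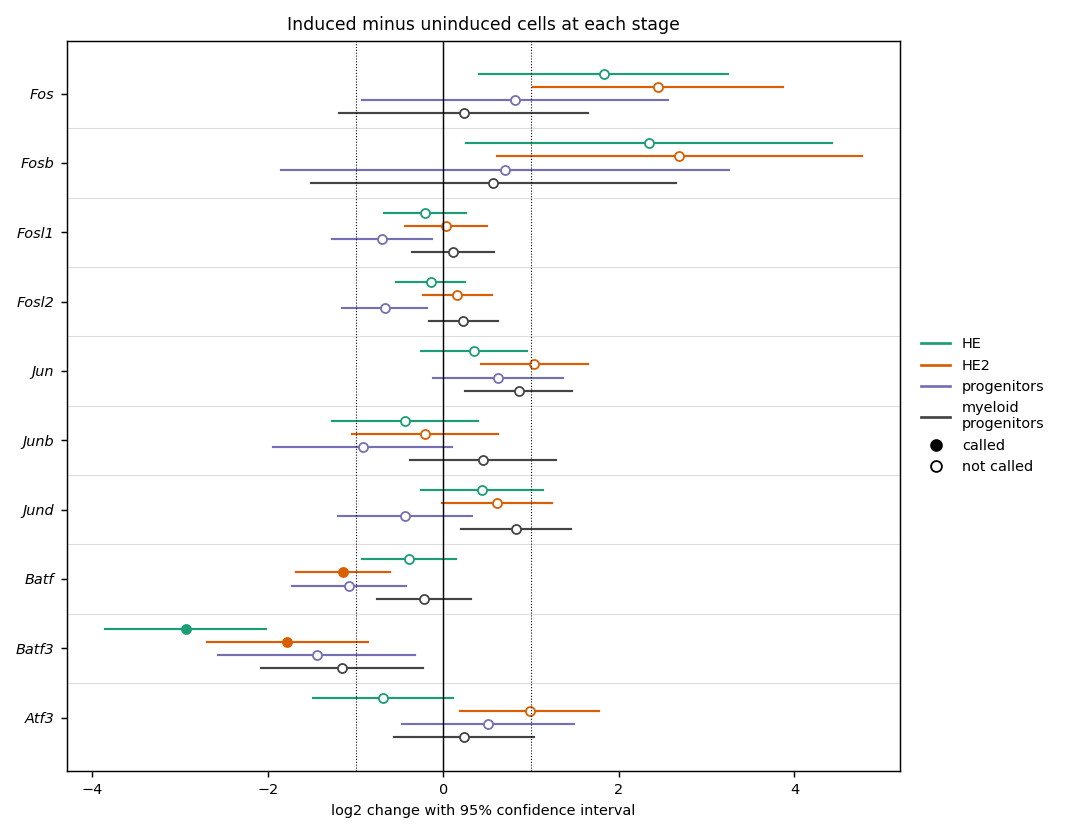
Log2 change of each of the 10 genes between induced and uninduced cells at each stage (x axis, points) with its 95% confidence interval (lines); filled points were called, and dotted lines mark a 2-fold change. The 3 filled points are Batf3 in HE and HE2 and Batf in HE2, and the widest intervals are those of Fos and Fosb.

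Fos, the founding partner of JUN in AP-1, was higher on every induced than on every uninduced array in HE, HE2 and progenitors, without passing the threshold in the fit over all stages. In HE its log2 intensity was 11.05, 11.61 and 10.30 on the uninduced arrays and 12.50, 13.21 and 12.72 on the induced arrays, a change of 1.83 (standard error (SE) 0.68, adjusted P = 0.08, limma). In HE2 it was 10.86, 11.27 and 9.98 without Dox and 12.65, 13.39 and 13.41 with Dox, a change of 2.45 (SE 0.68, adjusted P = 0.018, limma). Uninduced array 3 was the lowest at both stages, and the groups did not overlap. In progenitors the arrays read 11.80 and 11.10 without Dox and 12.06 and 12.47 with Dox (change 0.82, 95% interval -0.93 to 2.56). With only the HE2 arrays in the fit, Fos was called there (adjusted P = 0.0093, limma). Within slides, the difference of the means was 1.17 on slide 1 and 2.67 on slide 2 in HE, and 1.58 and 3.42 in HE2. In progenitors it was 0.27 on slide 1, with 1 array of each group. In myeloid progenitors, Fos was 8.19, 8.81 and 10.28 without Dox and 8.05, 11.46 and 8.47 with Dox, so that induced array 2 and uninduced array 3 stood above the other 4 and the groups overlapped (change 0.23, 95% interval -1.19 to 1.65). The sign rested on single arrays, at -0.84 without induced array 2 and -0.22 without uninduced array 1. The additional uninduced progenitor array read 10.85, below both other uninduced progenitor arrays.

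Fosb, a FOS protein of the same immediate early class, followed the pattern of Fos with still wider spread. In HE it was 11.18, 11.56 and 9.47 without Dox and 12.18, 13.61 and 13.46 with Dox (change 2.34, SE 0.99, adjusted P = 0.13, limma). In HE2 it was 11.28, 11.25 and 9.56 without Dox and 13.11, 13.39 and 13.66 with Dox (change 2.69, SE 0.99, adjusted P = 0.071, limma). Induced and uninduced arrays did not overlap at these stages, and uninduced array 3 was again the lowest in both. With only the HE2 arrays in the fit, Fosb was called in HE2 (adjusted P = 0.014, limma). In progenitors the values 12.53 and 10.82 without Dox overlapped with 12.77 and 11.98 with Dox (change 0.70, and -0.15 without uninduced array 2). The myeloid progenitor arrays read 6.49, 6.59 and 9.11 without Dox and 6.42, 11.01 and 6.46 with Dox, with the same 2 arrays standing above the others as for Fos (change 0.57, and -0.95 without induced array 2). Across the 22 arrays of the fit, Fosb was the gene whose intensities resembled those of Fos most (Pearson r = 0.979), followed by Esco1 (0.903) and Catsperz (0.899). These arrays share stage, slide and treatment, and the correlation is a description of likeness.

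**Figure D4:**
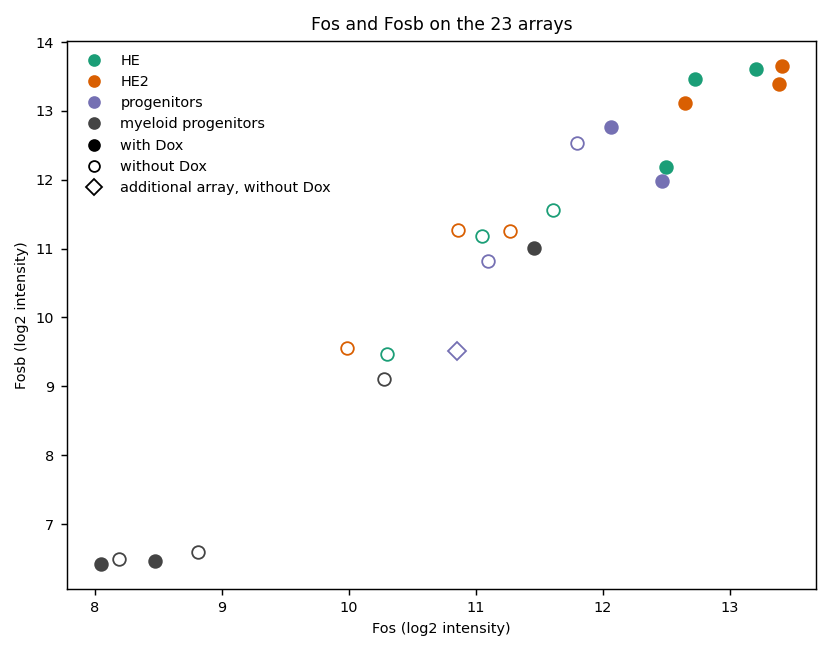
Log2 intensity of Fosb (y axis) against that of Fos (x axis) on the 23 arrays, coloured by stage, filled with Dox and open without Dox; the diamond is the additional uninduced progenitor array. Induced HE and HE2 arrays lie at the upper right, and 1 induced and 1 uninduced myeloid progenitor array lie apart from the other 4.

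Fosl1 and Fosl2 encode FRA1 and FRA2, FOS proteins without its activation domain. Fosl1 was dim, with log2 intensities of 5.50 to 7.41, and was not well above background on 1 induced progenitor array. Its values were 7.13 to 7.41 in all 6 myeloid progenitor arrays and at most 6.71 in all others, which did not overlap. Fosl2 was 9.91 and 9.84 in uninduced and 9.57 and 8.84 in induced progenitors (change -0.67, SE 0.23, adjusted P = 0.11, limma), and 8.96, 8.99 and 8.79 in uninduced and 9.07, 9.12 and 9.22 in induced myeloid progenitors (change 0.23, SE 0.19, adjusted P = 0.53, limma). Its groups overlapped in HE and HE2. Of the 2 probes that map to Fosl2, the other was much dimmer, at 5.39 to 6.49.

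The JUN genes encode the partners that every FOS, BATF and FRA protein needs. Jun in HE2 was 14.95, 14.56 and 15.03 without Dox and 15.00, 16.49 and 16.16 with Dox, a change of 1.04 (SE 0.29, adjusted P = 0.018, limma). Induced array 1 lay among the uninduced arrays and the other two lay above them. In myeloid progenitors it was 12.42, 12.66 and 13.04 without Dox and 13.57, 13.84 and 13.29 with Dox, with no overlap (change 0.86, SE 0.29, adjusted P = 0.057, limma). The changes in HE and progenitors were 0.35 (95% interval -0.26 to 0.96) and 0.63 (-0.12 to 1.37).

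Jund, the JUN gene least dependent on acute signals, behaved likewise in myeloid progenitors, at 12.94, 13.09 and 13.42 without Dox and 13.82, 14.29 and 13.82 with Dox (change 0.82, SE 0.30, adjusted P = 0.078, limma). Its spot on uninduced HE array 3 was marked as an outlier and left out, so that uninduced HE rests on 15.37 and 15.67. With that spot kept the value would be 10.56. Jund in the other stages overlapped between induced and uninduced arrays, with changes of 0.44 in HE, 0.61 in HE2 and -0.44 in progenitors. The negative sign in progenitors was not seen within slides. Slide 1, with 1 array of each group, gave a difference of 0.18. On slide 3 the induced progenitor array read 14.90 and the additional uninduced progenitor array 14.50. Junb, which can restrain JUN in dimers, was 10.07 and 9.40 in uninduced and 8.44 and 9.20 in induced progenitors (change -0.92, SE 0.48, adjusted P = 0.30, limma). The additional uninduced progenitor array, at 8.76, lay between the induced arrays and below the induced array of its own slide (9.20). Junb overlapped between induced and uninduced arrays at the other 3 stages.

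Batf3, a JUN partner known for its role in dendritic cells, was the member with the clearest change. In HE its log2 intensity was 11.38, 10.48 and 10.66 without Dox and 8.10, 7.81 and 7.81 with Dox, a 7.67-fold fall (log2 change -2.94, SE 0.44, adjusted P = 1.2e-04, limma). In HE2 it was 10.63, 9.84 and 9.41 without Dox and 8.91, 8.35 and 7.28 with Dox, a 3.43-fold fall (log2 change -1.78, SE 0.44, adjusted P = 0.0085, limma). Every induced array lay below every uninduced array, and within slides the differences were -2.84 and -2.86 in HE and -1.32 and -1.60 in HE2. In progenitors it was 10.42 and 8.92 without Dox and 8.81 and 7.64 with Dox (log2 change -1.45, SE 0.54, adjusted P = 0.13, limma), and in myeloid progenitors 9.93, 9.72 and 9.25 without Dox and 8.23, 8.54 and 8.66 with Dox (-1.16, SE 0.44, adjusted P = 0.092, limma). The groups did not overlap at these stages either, though the additional uninduced progenitor array, at 8.85, lay close to the higher induced one. The call in HE2 was lost without uninduced array 1 or 2, or without induced array 2 or 3, at log2 changes of -1.44, -1.84, -1.86 and -1.33. With only the HE2 arrays in the fit, the calls of Batf3 and Batf in HE2 were both lost (adjusted P = 0.055 and 0.040, limma), while Fos and Fosb were called in their place.

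Batf, a JUN partner of lymphoid and myeloid cells, was dim in HE and rose at the step to HE2. In HE2 it was 7.08, 7.99 and 7.35 without Dox and 6.35, 6.56 and 6.08 with Dox, a 2.21-fold fall (log2 change -1.14, SE 0.25, adjusted P = 0.0041, limma). The groups did not overlap, and the within-slide differences were -1.18 and -1.04. In progenitors it was 8.27 and 8.10 without Dox and 7.47 and 6.75 with Dox (log2 change -1.08, SE 0.31, adjusted P = 0.051, limma). In HE it was 5.80, 5.90 and 6.04 without Dox and 5.39, 5.83 and 5.33 with Dox, which overlapped, and on induced array 3 only 1 of its 10 spots was well above background. In myeloid progenitors the change was -0.22 (95% interval -0.76 to 0.31). The call in HE2 depended on the background correction, since the change was -0.89 with an offset of 50 and -0.96 without correction, below the 2-fold limit. With 75th percentile scaling (-1.49) it missed on its P value, and in the deposited log2 values (-0.90) on its size. It was also lost without uninduced array 2 (-0.89), induced array 1 (-1.15) or induced array 3 (-1.02). The promoter of Batf shown above holds 2 RUNX sequences and that of Batf3 has no match to this sequence. Whether these sequences have a part in the changes was not tested.

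Atf3, which stress signals induce rapidly and which can repress its own promoter, differed in sign between HE and HE2. In HE it was 12.40, 12.02 and 13.23 without Dox and 11.99, 11.66 and 11.95 with Dox, so that every induced array lay lower (change -0.68, SE 0.38, adjusted P = 0.27, limma). In HE2 it was 11.63, 10.68 and 11.03 without Dox and 11.97, 12.83 and 11.48 with Dox, with 1 induced array inside the uninduced range (change 0.98, SE 0.38, adjusted P = 0.088, limma). The difference between these responses was 1.67 (SE 0.54, adjusted P = 0.21, limma), which missed the threshold. In progenitors and myeloid progenitors the groups overlapped, with changes of 0.51 and 0.23.

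Differences of the Dox response between stages were tested as interaction terms, and 0 of the 10 members were called by limma in HE2 against HE (1.34% of all genes called), progenitors against HE2 (0.645%), myeloid progenitors against HE (4.72%) or myeloid progenitors against progenitors (1.5%). At an unadjusted P below 0.05 there were 1, 2, 1 and 5. The log2 change of Batf3 was 1.78 lower in HE than in myeloid progenitors (SE 0.62, adjusted P = 0.11, limma). Duration of Dox, culture medium and slide all differed between myeloid progenitors and HE and cannot be told apart from stage, and the comparisons share arrays.

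**Figure D5:**
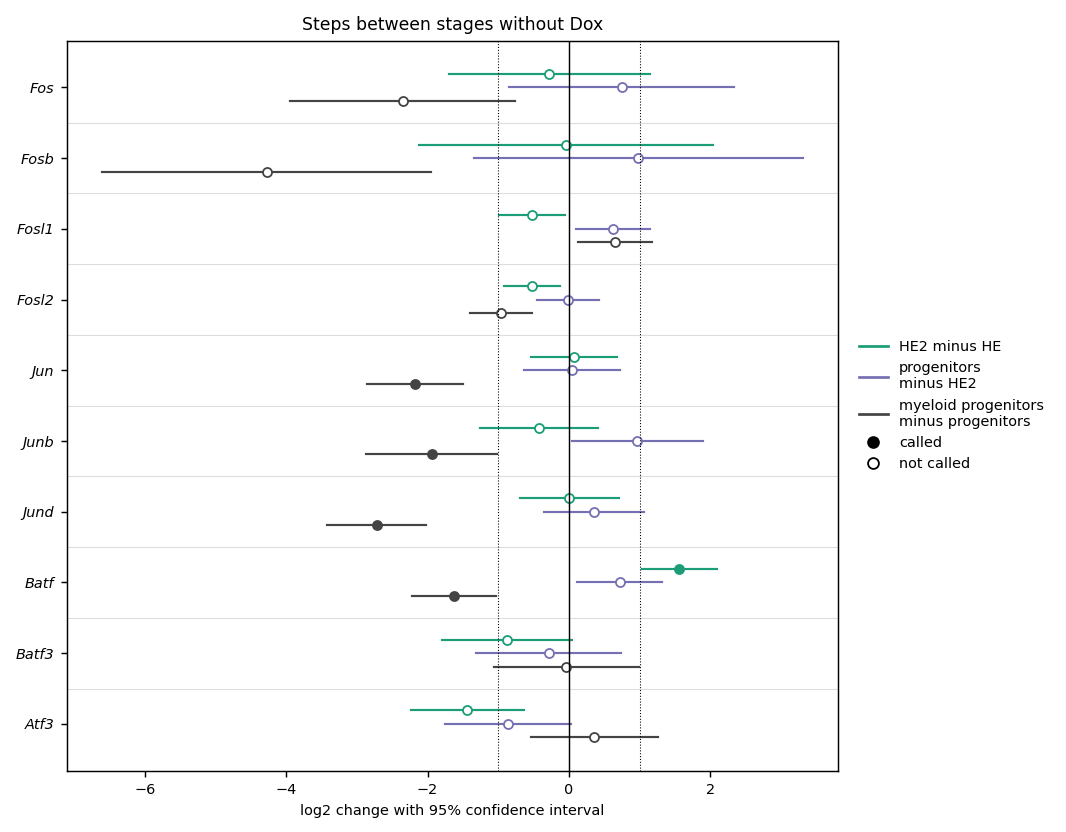
Log2 change of each of the 10 genes at the 3 steps between stages without Dox (x axis, points) with its 95% confidence interval (lines); filled points were called, and dotted lines mark a 2-fold change. Batf was called higher in HE2 than in HE, and Jun, Junb, Jund and Batf lower in myeloid progenitors than in progenitors.

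Without Dox, Batf rose from HE to HE2 and the JUN genes fell from progenitors to myeloid progenitors. From HE to HE2, 1 of the 10 was called (5.07% of all genes): Batf rose 2.95-fold (log2 change 1.56, SE 0.25, adjusted P = 5.9e-04, limma), from at most 6.04 on HE arrays to at least 7.08 on HE2 arrays. Atf3 was lower on every HE2 array (change -1.44, SE 0.38, adjusted P = 0.019, limma), just short of the threshold. From HE2 to progenitors 0 were called by limma (5.39% of all genes), with 3 at an unadjusted P below 0.05, of which Batf was again higher on every array (change 0.71, adjusted P = 0.16). With Dox, 0 were called by limma from HE to HE2 (3.1% of all genes) or from HE2 to progenitors (7.36%), with 2 and 3 at an unadjusted P below 0.05. Batf was higher on every induced HE2 than induced HE array (change 0.81, SE 0.25, adjusted P = 0.071, limma).

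From progenitors to myeloid progenitors, 4 of the 10 were called, all lower (13.9% of all genes were called, 6.93% lower). Jund fell 6.59-fold, from 15.79 and 15.95 to between 12.94 and 13.42 (log2 change -2.72, SE 0.33, adjusted P = 1.2e-05, limma). Jun fell 4.53-fold, from 14.90 and 14.87 to between 12.42 and 13.04 (log2 change -2.18, SE 0.32, adjusted P = 6.4e-05, limma). Junb fell 3.85-fold (-1.94, SE 0.44, adjusted P = 0.0027, limma) and Batf 3.09-fold (-1.63, SE 0.28, adjusted P = 3.2e-04, limma). Fosb, at -4.28 (SE 1.11, adjusted P = 0.0066, limma), missed the threshold on its spread, as did Fos at -2.35 (SE 0.76, adjusted P = 0.023). Fosl2 changed by -0.96 (SE 0.21, adjusted P = 0.0020, limma), within the 2-fold limit, while Batf3 and Atf3 overlapped between the stages. The uninduced progenitor arrays lay on slides 1 and 2 and the myeloid progenitor arrays on slide 3. With slide as a block the changes were -1.51 for Jund, -2.26 for Jun, -2.52 for Junb, -0.91 for Batf, -3.81 for Fosb and -2.90 for Fos, and 0 members were called by limma. In that fit induced progenitor array 2 was the only array on slide 3 outside the myeloid progenitors. The adjustment for slide 3 rests on this single array, and the SE of Batf was 0.51 with the block. On slide 3 itself, the additional uninduced progenitor array stood above the highest uninduced myeloid progenitor array for Jund (14.50 against 13.42), Jun (15.38 against 13.04), Junb (8.76 against 8.12) and Batf (7.54 against 6.84). The uninduced myeloid progenitor mean minus that array was -1.34 for Jund, -2.67 for Jun, -0.96 for Junb, -0.99 for Batf, -2.12 for Fosb and -1.76 for Fos. Except for Jun, these falls were smaller than in the fit without a slide block. Markers of other cell types moved at the same step: 7 of 7 erythroid genes rose (median log2 change 4.73), as did 5 of 6 megakaryocyte genes (3.46) and 3 of 4 tested macrophage genes (2.11), against 7% of all genes. Their log2 sums went from 17.46 to 17.74 up to 20.19 to 20.28 (erythroid), from 12.54 to 12.61 up to 15.74 to 16.02 (megakaryocyte) and from 11.83 to 12.21 up to 13.75 to 14.50 (macrophage). Of 8 smooth muscle, fibroblast and heart muscle genes, 4 fell and 1 rose (6.93% and 7% of all genes). The log2 sums of that list went from 14.33 to 14.73 down to 11.51 to 11.99. The part of these cell types in the fall of the JUN genes and Batf was not tested.

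The order of the group means is given as a description without P values, since neighbours in it were picked by the same values. Fos and Fosb ran from induced HE2, induced HE and induced progenitors through the uninduced sorted stages to the myeloid progenitors. Jun and Jund had their largest step between the 6 sorted groups and the myeloid progenitors, where Jun dropped by 1.21 from uninduced HE to induced myeloid progenitors (SE 0.29) and Jund by 1.46 from induced progenitors (SE 0.33). The groups of each pair also differed in medium and in most of their slides. Jund in induced progenitors was 15.97 on slide 1 and 14.90 on slide 3. Batf ran from uninduced progenitors (8.19) and uninduced HE2 (7.47) down to induced HE (5.52), and all 4 uninduced groups of Batf3 lay above its 4 induced groups. Atf3 ran from uninduced HE (12.55) to uninduced progenitors (10.25).

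Of 25 other immediate early genes, 24 were tested, and with Dox most of those that passed the threshold rose. In HE, 1 rose (4.7% of all genes), Klf4, a Kruppel-like transcription factor (log2 change 1.64, adjusted P = 3.4e-05, limma). In HE2, 7 rose and 0 fell (5.17% and 2.05% of all genes), led by Klf4 (2.57), Klf2 (2.14), Sgk1, a serum-induced kinase (1.56), and Egr2 (1.40). In progenitors 2 rose, Klf4 (1.88) and Sgk1 (1.52), compared with 3.03% of all genes. In myeloid progenitors 5 rose and 1 fell (5.13% and 1.18% of all genes), among them Sgk1 (2.12), the ERK phosphatase gene Dusp2 (1.94), Ccn1 (1.90) and Klf6 (1.71). The median log2 change of the list from progenitors to myeloid progenitors was -0.71, with 7 lower and 2 higher (6.93% and 7% of all genes), led by Ccn1 (-4.03), Ier2 (-2.79), Dusp1 (-2.18) and Nr4a1 (-2.00).

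Among 13 genes for kinases and ternary complex factors that act upstream of AP-1, 0 were called with Dox at any stage by limma (3.73 to 7.22% of all genes). Of 15 tested AP-1, ATF and MAF genes outside the 10, those called with Dox included Maf, a large MAF factor, which rose in HE (2.69) and HE2 (3.42), and 0 were called in progenitors or myeloid progenitors (3.73% and 6.31% of all genes). From progenitors to myeloid progenitors 4 rose, among them Maf (1.82) and Atf5 (1.80), and 1 fell, Jdp2, a repressor that pairs with JUN (-1.79), and the median of the list was 0.38 (7% and 6.93% of all genes rose and fell). Of 8 tested textbook AP-1 targets, Cd44, an adhesion receptor, fell in HE (-1.80), HE2 (-1.02) and progenitors (-1.23), and Plaur, the urokinase receptor, rose in myeloid progenitors (1.24). Among all genes, 4.7%, 5.17% and 5.13% rose with Dox in HE, HE2 and myeloid progenitors. Of 9 tested heat shock genes, Hspa1a and Hspb1 rose in HE (2.38 and 2.31), HE2 (2.47 and 1.72) and myeloid progenitors (2.59 and 3.22), and 0 were called in progenitors (3.73% of all genes). Their part in the changes of Fos and Fosb was not tested.

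Markers of other cell types moved with Dox as well. Of 7 erythroid genes, 3 rose in HE, 4 in HE2 and 4 in progenitors (4.7%, 5.17% and 3.03% of all genes), among them the embryonic globin gene Hbb-y (log2 changes 3.23, 4.34 and 4.47), and the log2 of their summed intensity went from 15.0 to 15.4 without Dox to 17.5 to 18.5 with Dox in HE. Of 8 smooth muscle, fibroblast and heart muscle genes, 3 fell and 2 rose in HE (7.09% of all genes were called there in either direction) and 4 fell in HE2 (2.05% of all genes), with log2 sums of 17.03 to 17.99 against 15.65 to 15.96 in HE and 15.02 to 16.74 against 13.78 to 13.84 in HE2. Itga2b, sorted against in HE, changed by -3.21 there. Of 8 endothelial genes, 2 rose in HE2, 3 in progenitors and 5 after expansion as myeloid progenitors (5.17%, 3.03% and 5.13% of all genes), and 1 fell in HE and 1 in myeloid progenitors (1.18% of all genes fell there), where their log2 sums were 14.44 to 14.57 without Dox and 15.61 to 15.86 with Dox. Of 6 megakaryocyte genes, 4 fell in myeloid progenitors (1.18% of all genes), with log2 sums of 15.74 to 16.02 against 14.67 to 14.82. Of 3 tested dendritic cell genes, Clec9a rose in HE (1.80), HE2 (2.60) and progenitors (1.67), Itgax fell in progenitors (-1.20) and myeloid progenitors (-1.32), and the log2 sums of all 5 listed were 8.59 to 9.39 against 9.23 to 9.65 in HE and 8.28 to 8.76 against 9.65 to 9.79 in HE2. Whether these cells take part in the changes of Batf and Batf3 was not tested.

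For Jun, the genes most like it over the 22 arrays were Pnrc1 (r = 0.935), Kif3a (0.928) and Otud1 (0.923). For Jund, over 21 arrays, they were Pex5 (0.966), Ccdc159 (0.961) and Zc3h7b (0.957), and for Atf3 they were Dusp22 (0.926), Nrp1 (0.898) and Ptprm (0.886). Among the members themselves, Jun and Jund had r = 0.901, Fos and Jund 0.843, and Fos and Jun 0.839, while Atf3 had its highest value with Fosl2 (0.648). Of the immediate early genes, Dusp1 was nearest to both Fos (0.843) and Jun (0.859). All of these values share the step between sorted and expanded cells, and are given as descriptions.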

How the data were processed

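The authors deposited Agilent scanner files of 1-colour arrays. In the deposited files, foreground and background intensities per spot had been extracted with Feature Extraction (10.7.1.1 in the submitters' processing notes, 10.7.3.1 in the file headers). The authors also deposited a table of normalized log2 values, used here only as an alternative. There, 6 of 23 columns held the values of another array of the same group (lowest rank correlation 0.996, against 0.937 to 0.948 with their own array), for induced arrays 2 and 3.

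Background was corrected by normexp with an offset of 16 (limma 3.58.1, R 4.3.3), 3671 control spots were left out, and 59305 other spots were quantile-normalized over 23 arrays. Outlier spots were dropped and spots of a probe averaged, giving 55681 probes, of which 26582 could be named through RefSeq identifiers, for 20145 genes. Genes reaching a log2 intensity of 6.5 on at least 1 array were tested (15202). The model had 14 residual degrees of freedom, 13 for Jund, and covered 22 arrays grouped by the labels. P values were adjusted by the Benjamini-Hochberg method, and measure the spread between these arrays.

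The members and gene lists were chosen with earlier results of these data known. The text names all 10 members, up to 4 called genes of largest change per related list and comparison, and the 3 genes nearest to Fos, Jun, Jund and Atf3 by Pearson correlation. Marker genes of other cell types were added for their levels. The result of 1 gene of a related list is not reported here. The fit was tested on simulated data. Alternatives covered background, scaling, filter, threshold, replicate, slide and scan date blocks, and each array left out.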

Additional observations from a re-analysis of the deposited data

Results flagged for a closer look

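Fosl2 had Dox responses of opposite sign in progenitors and myeloid progenitors, neither past the threshold. Its log2 change was 0.23 in myeloid progenitors, where every induced array lay above every uninduced array, and -0.67 in progenitors, where every induced array lay below. The difference between the responses was tested as an interaction term, at 0.89 (adjusted P = 0.19, limma), and missed the threshold. Leaving out 1 array at a time took the value in progenitors to between -1.03 and -0.30. On slide 1, with 1 array of each group, the difference in progenitors was -0.34. The lower induced progenitor array (8.84) lay on slide 3, where the additional uninduced progenitor array read 9.78.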

How the results depend on the processing

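Over the alternatives, the members' log2 changes that had an unadjusted P below 0.05 in the reported fit gave 959 values that kept their direction and their side of the threshold, 28 that lost and 52 that gained the call, and 0 that reversed. A changed threshold or filter, or a fit to the compared groups alone, leaves the log2 change itself as it was. No reversal could occur under these settings. Of all 130 log2 changes of members, 8 changed sign under another scaling, and among the Dox responses of Fos and Fosb, both in myeloid progenitors and Fosb in progenitors changed sign without 1 array. Counts of called members are given with the count as reported in brackets. Shares of all genes were not counted under these alternatives. In HE (1) there were 3 by 2-fold change alone. In HE2 (2) there was 1 with an offset of 50, without background correction, with 75th percentile scaling or in the deposited log2 values, 4 at an adjusted P of 0.05 and 5 by 2-fold change alone. In progenitors (0) and myeloid progenitors (0) there were 2 and 1 by 2-fold change alone, and 1 in myeloid progenitors with the compared groups alone. From HE to HE2 without Dox (1) there were 2 at an adjusted P of 0.05, by 2-fold change alone or with the additional array as replicate 3, and from progenitors to myeloid progenitors (4) there were 7 at an adjusted P of 0.05 and 0 with slide or scan date as a block. At that step both blocks rest on induced progenitor array 2 alone. With Dox there was 1 (0) from HE to HE2 with 75th percentile scaling, and 2 (0) from HE2 to progenitors at an adjusted P of 0.05 or by 2-fold change alone. By 2-fold change alone the differences of the Dox response (0) had 2 (HE2 minus HE), 3 (progenitors minus HE2), 3 (myeloid progenitors minus HE) and 2 (myeloid progenitors minus progenitors), and with the compared groups alone myeloid progenitors minus HE had 1. With the compared groups alone HE2 kept a count of 2, but of Fos and Fosb in place of Batf and Batf3. The cause was not tested.

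As numbered in the scanner files, induced and uninduced arrays of the same number deviated together at every number at no 3-array stage (correlations -0.53 to 0.69), whereas uninduced HE and HE2 arrays did (0.39, 0.80 and 0.61), where the block left the count at 1. With induced arrays 2 and 3 exchanged they did so in HE2 (0.36, 0.61 and 0.49) and myeloid progenitors (0.21, 0.13 and 0.26) and not in HE (-0.06, -0.20 and -0.36), so which numbering pairs the samples is not settled. With the replicate block, 1 member, Batf3, was called in the difference between myeloid progenitors and HE (adjusted P = 0.015, limma). The blocks were set apart for sorted stages and myeloid progenitors. They therefore cannot test the step from progenitors to myeloid progenitors, and no count is given there. A block with induced arrays 2 and 3 exchanged, as in the deposited table, was chosen after seeing the data, and gave 2 in HE (with Fos, adjusted P = 0.0051, limma), 4 in HE2 (with Fos and Fosb, adjusted P = 6.7e-04 and 0.0074, limma), 1 in progenitors, 1 in myeloid progenitors, 2 from HE to HE2 without Dox and 1 in the difference between myeloid progenitors and HE. Keeping outlier spots, also chosen after seeing the data, ended the call of Jund from progenitors to myeloid progenitors (adjusted P = 0.034, limma).

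Leaving out each array in turn gave 1 to 1 in HE, 0 to 2 in HE2 (0 without uninduced array 2 or induced array 3), 0 to 2 in progenitors (2 without induced array 1), 0 to 0 in myeloid progenitors, 1 to 2 from HE to HE2 without Dox and 3 to 5 from progenitors to myeloid progenitors. It gave 0 to 1 from HE to HE2 and from HE2 to progenitors with Dox, and 0 to 1 in the differences of progenitors minus HE2 and of myeloid progenitors minus progenitors. A progenitor group left with 1 array was assumed to vary like the other groups. With 75th percentile scaling the median of all genes moved to -0.31 from progenitors to myeloid progenitors, from -0.12.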
